A study of Mauremys reevesii with 3 samples.

Results

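miR-99, miR-100 and miR-125 are animal microRNAs (miRNAs, short RNAs that guide the repression of messenger RNAs), and their reads were followed in turtle embryos (Mauremys reevesii, the Chinese pond turtle). All rows of the deposited count table named after these miRNAs, with any letter, copy number or strand, were taken, which gave 30 of the 1743 rows. Rows of 1 paralog and strand that shared at least 16 consecutive bases were counted once, by 1 main row each, which left 14 main rows, 8 from the 5p and 6 from the 3p strand of the hairpin. One further row, bfl-miR-125b, was the reverse complement of mmu-miR-125b-5p with the same counts and was not counted again. The prefix of a row name gives the species of the reference sequence, not of the animal.

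The 3 small RNA libraries came from the embryonic gonad dissected together with the adrenal gland and kidney (adrenal-kidney-gonad complex), although the source label reads only gonad. Eggs had been kept at 26, 29 or 32 °C until Greenbaum stage 16, when the gonad starts to respond to temperature, and no other treatment or genotype was labelled. In this species cool incubation yields mostly males and warm incubation mostly females. RNA of 3 biological samples was pooled before each library was made, so every temperature had 1 library, no difference has a replicate check and no test across samples was possible.

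A hairpin precursor is cut into a 5p and a 3p strand, 1 of which usually enters the silencing complex while the other is largely discarded. The bases 2 to 8 of a mature strand, the seed, choose most of its targets. miR-125 is the vertebrate counterpart of worm lin-4, a timer of larval development, and in mice it represses Lin28, the block on let-7 maturation. miR-99 and miR-100 are related in sequence to miR-10 and repress mTOR and the IGF1 receptor in human cells. In mammals a member of miR-99 or miR-100, a member of let-7 and a member of miR-125 lie together in each of several clusters; no turtle coordinates are given here.

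The mature sequences of the 10 main rows with at least 10 counts in some library show which rows share a seed and where the paralogs differ. They are printed as the deposited table gives them, 5′ to 3′, with the seed in capitals.
aca-miR-99b-5p: aACCCGUAgauccgaacuugcgg
hsa-miR-100-5p: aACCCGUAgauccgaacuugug
bta-miR-99a-5p: aACCCGUAgauccgaucuugu
mmu-miR-125b-5p: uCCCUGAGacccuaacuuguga
dre-miR-125a: uCCCUGAGacccuuaaccugug
dre-miR-125c-5p: uCCCUGAGacccuaacucguga
aca-miR-99b-3p: cAAGCUCGagucuguggguau
chi-miR-125b-3p: aCAAGUCAggcucuugggacc
sha-miR-125b: aCAGGUCAggcucuugggacc
aca-miR-125a-3p: aCAGGUGAgguucuugggaacu

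The 5p strands fell into 2 seed families. The main rows of miR-99b, miR-100 and miR-99a had the seed ACCCGUA, which 0 rows outside these names carried. The miR-99a row efu-miR-99a starts 1 base earlier and has the seed AACCCGU with the same counts as bta-miR-99a-5p, so the counts do not say at which base the reads of miR-99a began. miR-125a, miR-125b and miR-125c had the seed CCCUGAG, the seed of lin-4, which 4 predicted rows also carried. The most counted of those, novel_83, had 39, 65 and 48 counts at 26, 29 and 32 °C. The 3p strands had 4 different seeds among the 4 rows printed above. For miR-125b-3p the seed is not settled by the counts. The row hsa-miR-125b-2-3p starts 2 bases before chi-miR-125b-3p and has the seed CACAAGU. Its counts were nearly the same, with 3326 against 3313 at 26 °C, so they do not say at which base these reads began.

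Several of these rows differed by few bases, counted from 1 at the 5′ end. hsa-miR-100-5p and aca-miR-99b-5p were the same over their first 20 bases and then differed by U21C. hsa-miR-100-5p and hsa-miR-99a-5p differed by A16U. mmu-miR-125b-5p and dre-miR-125c-5p differed by U18C, and sha-miR-125b, named without a strand but 3p by its sequence, differed from chi-miR-125b-3p by A4G, inside the seed. aca-miR-125a-3p differed from chi-miR-125b-3p by A4G, C7G, C11U and C20A. mmu-miR-125b-5p and dre-miR-125a, which share a seed, were the same over their first 13 bases but differed at 8 positions when compared without gaps. How reads that end within a shared stretch were divided among rows is not given in the sources used here, so the counts of miR-99b and miR-100 are those the table assigns.

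Many of the remaining rows repeated a main row. The 3 miR-100 rows hsa-miR-100-5p, mdo-miR-100-5p and ola-miR-100 had counts within 1 of each other in every library, although they were 22, 21 and 19 bases long. The 4 miR-99a rows, 20 to 25 bases long, had the same counts throughout. hsa-miR-125b-2-3p had 3326, 3418 and 2490 counts at 26, 29 and 32 °C, against 3313, 3411 and 2470 for chi-miR-125b-3p. Rows of these sets with a changed first base had far fewer counts, with 474, 534 and 407 counts for nve-miR-100-5p (A1G against hsa-miR-100-5p) and 229, 325 and 304 for ame-miR-125 (U1C against mmu-miR-125b-5p).

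Counts in the table summed to 9348882 at 26 °C, 9624436 at 29 °C and 9613861 at 32 °C. These totals repeat the counts of near-identical rows. With only the most counted row of each near-identical set they were 2969285, 3033734 and 2989977. Levels are given in CPM, counts scaled to a table total of 1e6, so that a single count equals 0.107, 0.104 and 0.104 CPM. The gonad miRNA miR-202 and the kidney miRNAs miR-192, miR-194 and miR-215 were all present. The miR-202 row mmu-miR-202-5p had 802, 1018 and 327 CPM at 26, 29 and 32 °C, and the kidney rows together 4930, 4096 and 3395 CPM. Most of the kidney sum was miR-192, with 4090, 3301 and 2624 CPM. miR-194 changed less, with 773, 733 and 718 CPM, and miR-215 had 67.2, 61.8 and 52.8 CPM. Markers of other tissues also varied, with 602, 147 and 175 CPM for the liver miRNA miR-122, 168, 88.8 and 81.7 for the pancreas miRNA miR-217, 44.7, 82.5 and 42.3 for 3 blood miRNAs and 147, 113 and 104 for 3 striated muscle miRNAs. The blood miRNAs did not move together. miR-223 made up most of their sum, with 39.5, 80.4 and 39.5 CPM. miR-144 had 0.535, 1.14 and 0.208 CPM, while miR-451 was lowest at 29 °C, with 4.71, 0.935 and 2.60 CPM. Nor did the striated muscle miRNAs. miR-206 had 81.9, 54.9 and 45.8 CPM and miR-133 61.3, 52.5 and 55.5 CPM, while miR-1 was highest at 29 °C, with 3.85, 6.03 and 3.12 CPM. Among nervous system miRNAs, miR-9 had 0 to 2 counts and miR-137 5.03, 11.1 and 10.9 CPM. The part of these shifts in the results below was not tested, and fewer cells of a type and less RNA per cell cannot be told apart in whole tissue.

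miR-99b-5p and miR-100-5p were the most counted of these miRNAs at each temperature. aca-miR-99b-5p had 102968, 132093 and 110289 counts at 26, 29 and 32 °C, or 11014, 13725 and 11472 CPM, and stood at rank 19 of all rows in every library. Ranks count near-identical rows separately. hsa-miR-100-5p had 58120, 66675 and 61232 counts, or 6217, 6928 and 6369 CPM, at rank 29. The 29 °C library was the highest of the 3 for both on the table total, although with scaling factors from trimmed means (TMM) or from DESeq2 hsa-miR-100-5p was highest at 32 °C, and the exact 95% intervals of the 3 levels did not overlap for either. bta-miR-99a-5p was far lower, with 1523, 1562 and 1402 counts, or 163, 162 and 146 CPM. Its levels at 26 and 29 °C lay within each other's intervals. All intervals here cover counting error only, and since no molecular identifiers are named, reads copied by amplification could make them too narrow.

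The miR-125 strands were lower than miR-99b-5p and miR-100-5p. mmu-miR-125b-5p had 12901, 15261 and 15762 counts at 26, 29 and 32 °C, or 1380, 1586 and 1640 CPM. dre-miR-125a, the 5p strand of miR-125a by its sequence, had 4154, 4662 and 5740 counts, or 444, 484 and 597 CPM. For both the 26 °C library was the lowest and the 32 °C library the highest. dre-miR-125c-5p had 37, 49 and 43 counts, with intervals that overlapped in all pairs.

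The 3p strands were lowest at 32 °C in each of the 4 rows. aca-miR-99b-3p had 5761, 6219 and 4835 counts at 26, 29 and 32 °C, or 616, 646 and 503 CPM. chi-miR-125b-3p stood at 354, 354 and 257 CPM. aca-miR-125a-3p had 42, 47 and 20 counts and sha-miR-125b 15, 15 and 10, and the intervals of the sha-miR-125b levels overlapped throughout.

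The order of the levels over the main rows was the same in each library for the 3 most counted rows, miR-99b-5p, miR-100-5p and miR-125b-5p, and their neighbours' intervals were apart. The next places changed: aca-miR-99b-3p lay above dre-miR-125a at 26 °C (616 against 444 CPM) and at 29 °C (646 against 484) but below it at 32 °C (503 against 597). chi-miR-125b-3p and bta-miR-99a-5p followed in that order in every library. dre-miR-125c-5p and aca-miR-125a-3p could not be separated at 26 °C, with 3.96 and 4.49 CPM, or at 29 °C, with 5.09 and 4.88 CPM. At 32 °C they had 4.47 (3.24 to 6.02) and 2.08 (1.27 to 3.21) CPM.

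**Figure D1:**
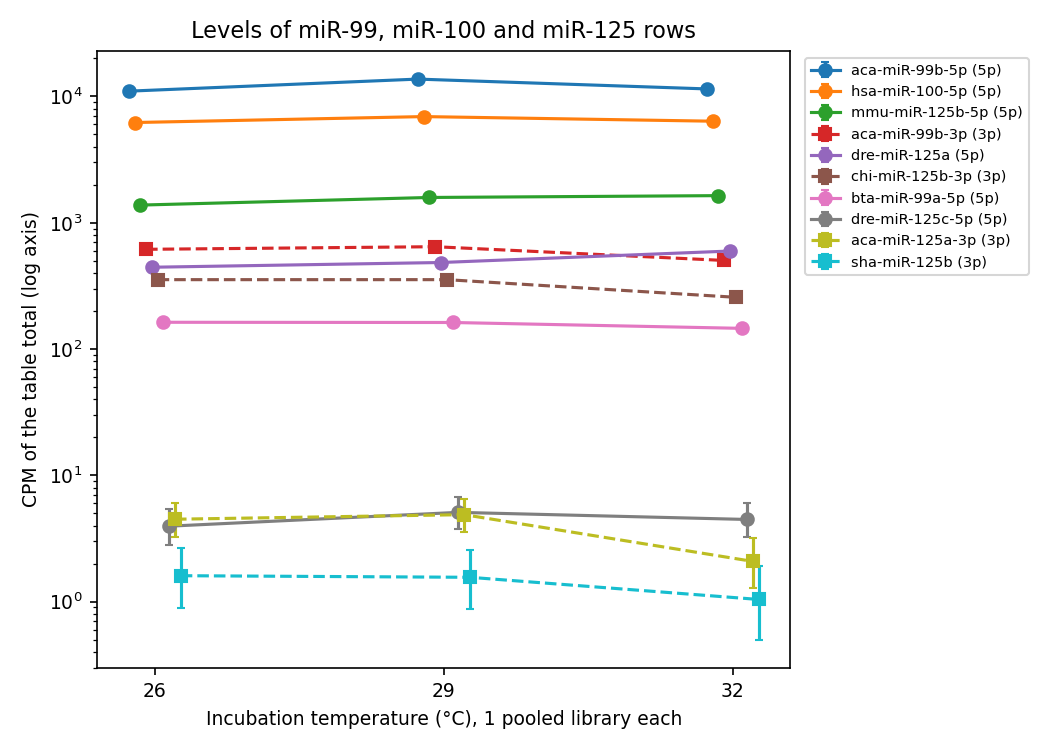
CPM of the table total (log axis) of the 10 main rows with at least 10 counts in some library, against incubation temperature, with 1 library per point, exact 95% counting intervals and points set slightly apart sideways; circles are 5p and squares 3p strands. aca-miR-99b-5p runs highest at 11014, 13725 and 11472 CPM, and dre-miR-125a and aca-miR-99b-3p change places between 29 and 32 °C.

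The other 4 main rows were at or near the floor. pma-miR-100b had 0, 3 and 5 counts, mmu-miR-125b-2-3p 5, 3 and 1, dme-miR-100-5p 0, 1 and 0 and ssa-miR-125b-2-3p 1, 0 and 0 at 26, 29 and 32 °C. The floor of 3 counts equals 0.321 CPM at 26 °C and 0.312 CPM at 29 and 32 °C. The exact interval of a count of 0 reaches higher, to 0.395 CPM at 26 °C, 0.383 CPM at 29 °C and 0.384 CPM at 32 °C. Reads of these versions, named after lamprey, mouse, fly and salmon, were therefore at most a few per library, and no fold is given for them.

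Summed over the 14 main rows, these miRNAs had 188840, 230001 and 201809 counts at 26, 29 and 32 °C, or 2.02%, 2.39% and 2.10% of the table total. That total repeats near-identical rows, so these shares are low. aca-miR-99b-5p alone made up 1.10%, 1.37% and 1.15% of it. With only the most counted row of each sequence group in the total, its shares were 3.47%, 4.35% and 3.69%. That smaller total leaves out hsa-miR-100-5p and other joined paralogs, so these shares are too high. The miR-99 and miR-100 5p strands had 17394, 20815 and 17987 CPM and the miR-125 5p strands 1828, 2075 and 2241. The 3p strands had 977, 1007 and 763 CPM. On the table total miR-99 and miR-100 were highest at 29 °C, miR-125 5p strands highest and 3p strands lowest at 32 °C. The log2 ratio of the whole sum was 0.24 (0.23 to 0.25) for 29 over 26 °C and -0.19 (-0.20 to -0.18) for 32 over 29 °C, and the latter became 0.010 with TMM factors, so no direction is drawn between 29 and 32 °C.

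A row was called apart when its CPM differed at least 2-fold and the exact interval of the ratio left out equality, provided that 1 of the libraries had 10 counts or more. Between 32 and 26 °C this held for 1 of the 10 main rows tested, which was lower at 32 °C, and 0 were higher. Among all 814 rows tested, 13.3% were lower and 4.42% higher, and among the 371 sequence groups, in which joined rows count once, 18.9% and 6.47%. The 1 row was aca-miR-125a-3p, whose 20 against 42 counts gave a log2 ratio of -1.11 (-1.96 to -0.31), and -0.90 with TMM factors, under 2-fold. A share of 1 in 10 main rows was near the 13.3% of all rows, but the units differ. Main rows leave out repeats that the rows of the table hold. They also keep apart paralogs, such as miR-99b-5p and miR-100-5p, that a sequence group joins. The median log2 ratio was -0.06 over the 10 rows and -0.13 over all 814, and TMM factors added 0.21 to every ratio of this pair.

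Below 2-fold, the 5p strands of miR-125a and miR-125b were higher at 32 than at 26 °C, while the interval of dre-miR-125c-5p at 0.18 (-0.49 to 0.85) included equality. dre-miR-125a had a log2 ratio of 0.43 (0.37 to 0.48) and mmu-miR-125b-5p one of 0.25 (0.21 to 0.28), and both stayed positive under every scaling tried. aca-miR-99b-5p stood at 0.06 (0.05 to 0.07) and hsa-miR-100-5p at 0.03 (0.02 to 0.05), sizes below the shift between scalings. bta-miR-99a-5p stood at -0.16 (-0.27 to -0.05) and moved to 0.05 with TMM factors, so no direction is drawn for it. chi-miR-125b-3p stood at -0.46 (-0.54 to -0.39) and aca-miR-99b-3p at -0.29 (-0.35 to -0.24), and with TMM factors they were at -0.25 and -0.08, still below 0.

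**Figure D2:**
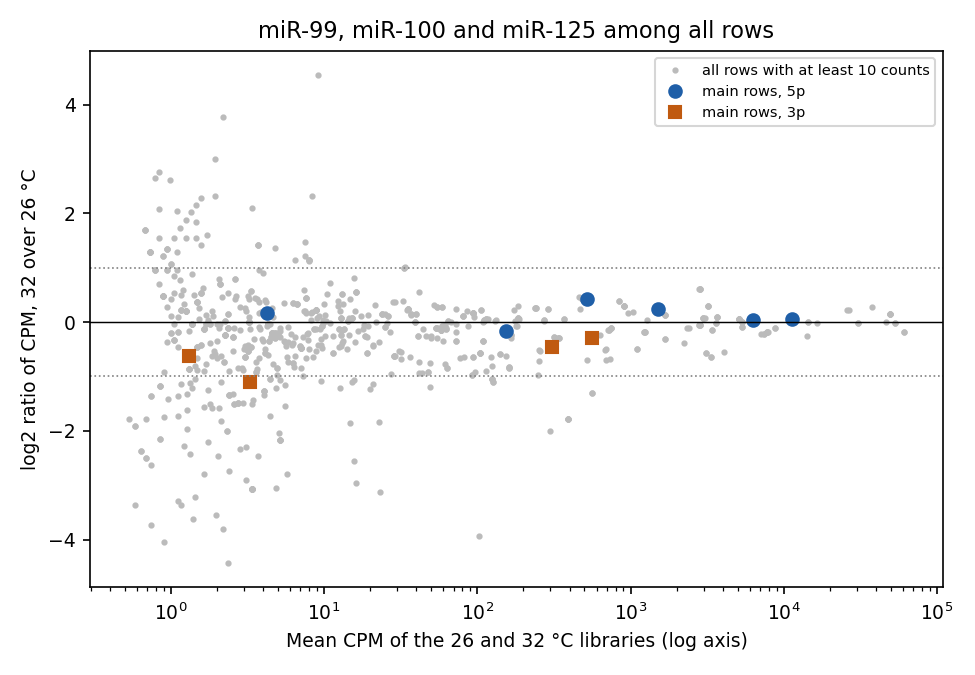
log2 ratio of CPM for 32 over 26 °C against mean CPM of the 2 libraries (log axis) for the 814 rows tested, with a count of 0 set to 3 counts and dotted lines at 2-fold. The 6 main 5p rows (circles) lie between -0.16 and 0.43, and the 4 main 3p rows (squares) lie below 0, with aca-miR-125a-3p at -1.11.

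In the 29 over 26 °C comparison 0 of the 10 main rows were called apart, against 4.56% higher and 6.28% lower among 812 rows and 5.93% and 9.16% among sequence groups. The interval of aca-miR-99b-5p lay furthest above equality, with a log2 ratio of 0.32 (0.31 to 0.33). mmu-miR-125b-5p stood at 0.20 (0.17 to 0.23), hsa-miR-100-5p at 0.16 (0.14 to 0.17) and dre-miR-125a at 0.12 (0.06 to 0.19). These 4 kept their direction under every scaling tried. bta-miR-99a-5p at -0.01 (-0.11 to 0.10) and chi-miR-125b-3p at 0.00 (-0.07 to 0.07) had intervals that included equality.

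Between 32 and 29 °C, 1 of the 10 main rows was called lower and 0 higher, against 9.67% lower and 2.73% higher among 807 rows and 13.5% and 4.85% among sequence groups. With TMM factors the shares of all rows were 5.70% lower and 3.10% higher, and with DESeq2 size factors 5.95% and 3.10%. The row called was again aca-miR-125a-3p, whose 20 against 47 counts gave a log2 ratio of -1.23 (-2.06 to -0.45). dre-miR-125a stood at 0.30 (0.25 to 0.36) and mmu-miR-125b-5p at 0.05 (0.02 to 0.08). aca-miR-99b-5p stood at -0.26 (-0.27 to -0.25), and at -0.06 with TMM factors. hsa-miR-100-5p stood at -0.12 (-0.14 to -0.11) but at 0.08 with TMM factors, so its direction depends on the scaling. The comparisons share libraries: each library enters 2 of the 3 pairs.

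**Figure D3:**
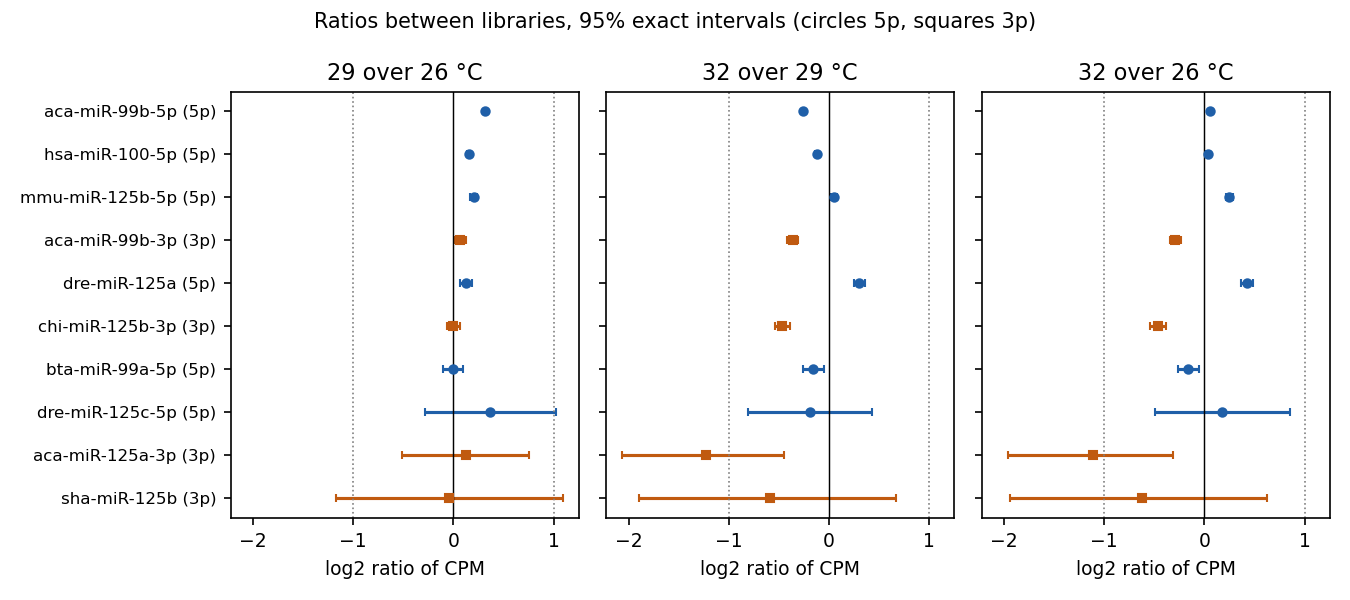
log2 ratios of CPM between pairs of libraries for the 10 main rows, with exact 95% counting intervals and dotted lines at 2-fold; circles are 5p and squares 3p strands. In the 32 over 26 °C panel dre-miR-125a (0.43) and mmu-miR-125b-5p (0.25) lie above 0, while all 4 3p rows lie below it.

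Ratios between paralogs within a library do not depend on the scaling. aca-miR-99b-5p made up 63.3% (63.1% to 63.6%) of the miR-99b, miR-100 and miR-99a counts at 26 °C, 65.9% (65.7% to 66.1%) at 29 °C and 63.8% (63.6% to 64.0%) at 32 °C. hsa-miR-100-5p took 35.7%, 33.3% and 35.4%, and bta-miR-99a-5p 0.937%, 0.780% and 0.811%. The 29 °C library thus held relatively more miR-99b, with 1.77, 1.98 and 1.80 counts of miR-99b-5p per count of miR-100-5p and a log2 odds ratio of 0.16 (0.14 to 0.18) for 29 over 26 °C.

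Within miR-125, the share of miR-125a was highest at 32 °C. dre-miR-125a took 24.3% (23.7% to 24.95%) of the miR-125 5p counts at 26 °C, 23.3% (22.8% to 23.9%) at 29 °C and 26.6% (26.1% to 27.2%) at 32 °C. mmu-miR-125b-5p took 75.5%, 76.4% and 73.2%, and dre-miR-125c-5p 0.216%, 0.245% and 0.200%. The ratio of miR-125b-5p to miR-125a-5p was 3.11, 3.27 and 2.75, with a log2 odds ratio of -0.18 (-0.24 to -0.11) for 32 over 26 °C.

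**Figure D4:**
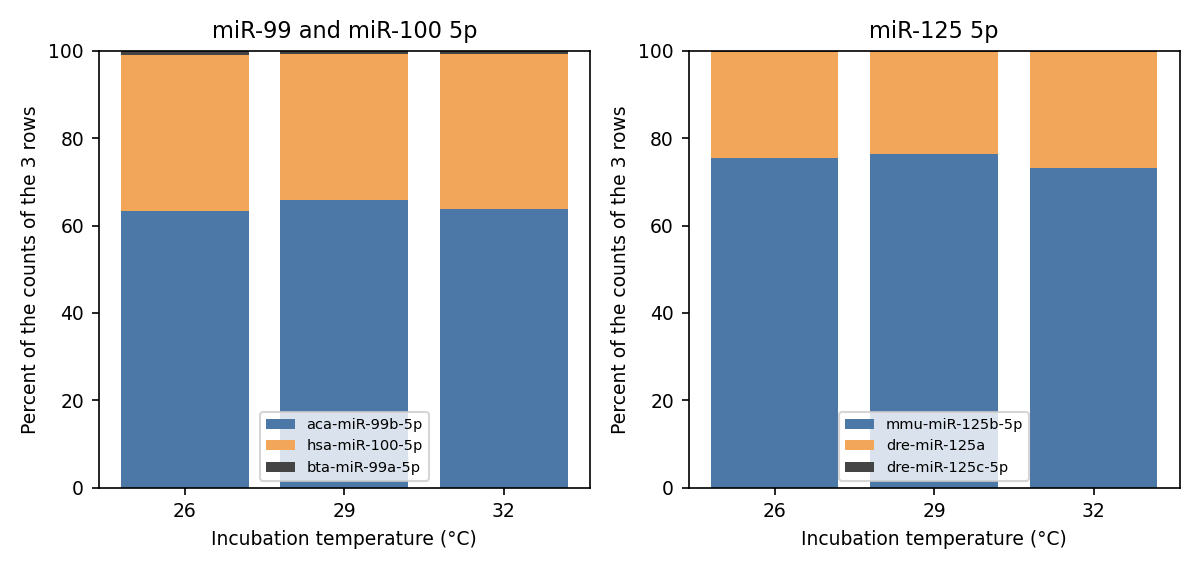
Percent of the 5p counts taken by each paralog at 26, 29 and 32 °C, for miR-99 with miR-100 (left) and miR-125 (right), with 1 library per bar; counting intervals are narrow on this scale and are not drawn. aca-miR-99b-5p takes 63.3%, 65.9% and 63.8%, and dre-miR-125a 24.3%, 23.3% and 26.6%.

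miR-99b and miR-125a, which share a cluster in mammals, did not keep a fixed ratio. There were 24.8, 28.3 and 19.2 counts of aca-miR-99b-5p per count of dre-miR-125a at 26, 29 and 32 °C, a log2 odds ratio of -0.37 (-0.43 to -0.31) for 32 over 26 °C and 0.19 (0.13 to 0.25) for 29 over 26 °C. hsa-miR-100-5p and mmu-miR-125b-5p, also cluster partners in mammals, had ratios of 4.51, 4.37 and 3.88, with a log2 odds ratio of -0.21 (-0.25 to -0.18) for 32 over 26 °C. In both pairs the miR-125 member held the larger relative share at 32 °C. The row mmu-miR-125b-5p does not tell copies of the miR-125b hairpin apart. Its ratio to hsa-miR-100-5p therefore need not describe members of the same cluster.

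The ratio of the 5p to the 3p strand was higher at 32 than at 26 °C in the 3 hairpins whose strands each had at least 30 counts summed over the libraries, miR-99b, miR-125b and miR-125a. miR-125b had 3.89 (3.75 to 4.05), 4.47 (4.31 to 4.64) and 6.38 (6.12 to 6.66) 5p counts per 3p count at 26, 29 and 32 °C, and none of these intervals overlapped. miR-99b had 17.9, 21.2 and 22.8, also with intervals apart. miR-125a had 98.9, 99.2 and 287 (186 to 470), on 42, 47 and 20 counts of its 3p strand.

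For 32 over 26 °C the log2 odds ratio was 0.71 (0.63 to 0.80) in miR-125b, 0.35 (0.30 to 0.41) in miR-99b and 1.54 (0.73 to 2.39) in miR-125a. Among 41 other hairpins the ratio was higher with an interval excluding equality in 8 (19.5%) and lower in 10 (24.4%). In 18 of the 41 the 3p strand was the less counted, as in these 3 hairpins, and there it was higher in 7 (38.9%) and lower in 1. The median log2 odds ratio of those 18 was 0.03 and their range -1.01 to 1.69. In the whole set of 41, the less counted strand had a median log2 ratio of -0.30 for 32 over 26 °C and the more counted strand one of 0.01. The median over all 371 sequence groups was -0.23, and TMM factors add 0.21 to each of these values. Free of the scaling, the ratio of the more to the less counted strand was higher with an interval excluding equality in 16 of the 41 and lower in 2. A lower minor strand relative to the major one was thus also seen outside miR-99 and miR-125.

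Between 29 and 26 °C the log2 odds ratio was 0.25 (0.20 to 0.30) in miR-99b, 0.20 (0.12 to 0.28) in miR-125b and 0.00 (-0.63 to 0.64) in miR-125a, beside 19.5% of other hairpins higher and 14.6% lower, and 33.3% higher where the 3p strand was the less counted. Between 32 and 29 °C it was 0.10 (0.05 to 0.16), 0.51 (0.43 to 0.59) and 1.53 (0.75 to 2.37), beside 17.1% higher and 26.8% lower, and 27.8% higher where the 3p strand was the less counted. The value of miR-125a, on 20 against 47 counts of its 3p strand, lay above the highest other hairpin, miR-29c at 1.42 (-0.15 to 3.06). The difference in miR-99b thus lay mostly between 26 and 29 °C and that of miR-125b and miR-125a mostly between 29 and 32 °C. Strands were paired by name, so copies of a hairpin, such as those of miR-125b, were not told apart.

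**Figure D5:**
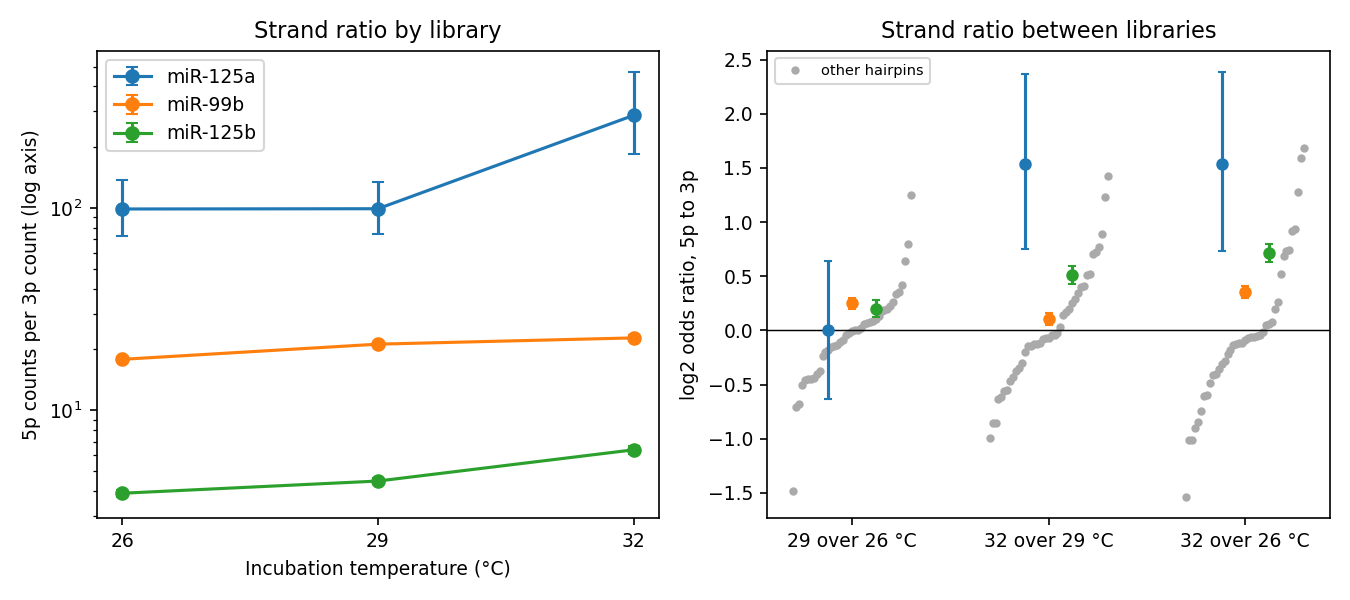
Left, 5p counts per 3p count (log axis) of 3 hairpins in each library with exact 95% intervals; right, log2 odds ratio of 5p to 3p between libraries for these hairpins (coloured, with intervals) and 41 other hairpins (grey, sorted by value). miR-125b goes from 3.89 to 6.38 and miR-125a from 98.9 to 287 between 26 and 32 °C, within the range of the other hairpins for this pair. For 32 over 29 °C miR-125a, at 1.53, lies above the highest of them, miR-29c at 1.42.

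let-7, whose members lie beside these miRNAs in mammals, was compared row by row. For 32 over 26 °C, 0 of 41 let-7 rows were called higher and 1 lower, with a median log2 ratio of 0.15. The shares over all rows tested were 4.42% higher and 13.3% lower. Counted once per sequence group, let-7 had 0 higher and 1 lower of 12, against 6.47% higher and 18.9% lower among all groups. With only 12 groups, 1 called says little. The 1 row, named after its values were seen, was hsa-let-7c-3p with 27 against 77 counts, also a minor strand. efu-let-7c had 15045, 18642 and 16978 counts at 26, 29 and 32 °C, with log2 ratios of 0.27 (0.24 to 0.30) for 29 over 26 °C and 0.13 (0.10 to 0.17) for 32 over 26 °C. bfl-let-7b had 8510, 10092 and 9873 counts and ola-let-7e 101, 179 and 148, which for 29 over 26 °C gave 0.78 (0.42 to 1.15) on the log2 scale. Mean CPM at 26 and 32 °C was 969 for bfl-let-7b but 16.1 for hsa-let-7b-5p and for oar-let-7b. Their log2 ratios for 32 over 26 °C were 0.17, 0.56 and 0.56. ola-let-7e had the same mean CPM (13.1) and log2 ratio (0.51) as gga-let-7k-5p. Which let-7 member bfl-let-7b and ola-let-7e stand for was not tested. tch-let-7a-5p had only 16, 16 and 9 counts, but it was picked by the letter in its name. Rows named let-7 without a letter were left out of that choice. Their mean CPM at 26 and 32 °C was 1032 for cel-let-7-5p, 105 for dme-let-7-5p, 105 for tca-let-7-5p and 0.900 for spu-let-7. Which let-7 member these rows stand for was not tested, so tch-let-7a-5p alone does not give the level of let-7a. Other letters were counted more than those chosen. Mean CPM at 26 and 32 °C was 3199 for mmu-let-7i-5p and 3059 for hsa-let-7f-5p, against 1688 for efu-let-7c. mmu-let-7i-5p had log2 ratios of 0.53 for 29 over 26 °C and 0.29 for 32 over 26 °C.

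The miR-10 rows are relatives of miR-99 and miR-100 by sequence. Between 32 and 26 °C 0 of 29 rows and 0 of 7 sequence groups were called apart, with a median log2 ratio of 0.15 over the rows. Among all rows tested 13.3% were lower and 4.42% higher, and among all sequence groups 18.9% and 6.47%. With only 7 groups, 0 called says little. hsa-miR-10a-5p shared a run of 11 bases with hsa-miR-100-5p. It had 497644, 501252 and 505146 counts, or -0.02 (-0.02 to -0.01) in log2 between 32 and 26 °C, and mmu-miR-10b-5p had 439596, 458331 and 500926, or 0.15 (0.14 to 0.15). Neither was highest in CPM at 29 °C on the table total, unlike aca-miR-99b-5p and hsa-miR-100-5p. With TMM or DESeq2 factors hsa-miR-100-5p too was not highest at 29 °C but at 32 °C.

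The named sequence groups whose levels followed these rows most closely were found among 93 candidates with at least 100 counts in every library. Likeness was the Euclidean distance between log2 CPM values centred over the 3 libraries, and with 3 points many rows lie close by. aca-miR-99b-5p was nearest to cgr-miR-214-3p (distance 0.039), dre-miR-145-5p (0.052) and ola-miR-143 (0.059), and hsa-miR-100-5p to hsa-let-7f-5p (0.034), mdo-miR-143-5p (0.048) and efu-miR-27b (0.069). mmu-miR-125b-5p was nearest to hsa-miR-24-3p (0.010), mmu-miR-135a-5p (0.023) and oan-miR-32-3p (0.037), and dre-miR-125a to gga-miR-196-5p (0.059), aca-miR-10c-3p (0.094) and gga-miR-222a (0.13). bta-miR-99a-5p was nearest to gga-miR-181b-5p (0.019), dre-miR-10c-5p (0.025) and oha-miR-126-5p (0.030). aca-miR-99b-3p was nearest to mmu-miR-126a-5p (0.037), oan-miR-7-1-3p (0.051) and mmu-miR-27b-5p (0.082). chi-miR-125b-3p was nearest to oan-miR-7-1-3p (0.072), mmu-miR-7b-5p (0.083) and aca-miR-425-5p (0.090).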

How the data were processed

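The authors deposited raw read counts per row for 3 libraries, as the file headers say. The TPM columns, also deposited, are these counts scaled to a column total of 1e6, with no length term. RNA was pooled before library construction, per the labels' protocols. FastQC and Bowtie are named in the submitters' processing notes; versions, the miRNA reference and the handling of reads matching several rows are not given in the sources used here. Columns were assigned to libraries by name.

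CPM used the table total. Pairs were compared by the ratio of CPM with a 95% exact conditional (Clopper-Pearson) interval. Apart means at least 2-fold with an interval excluding equality; rows under 10 counts in both libraries were not tested. A count of 0 was set to 3 counts. Odds ratios were conditional estimates with exact intervals. The main row was the most counted of its set, except that chi-miR-125b-3p stands for a set in which hsa-miR-125b-2-3p had up to 20 more counts; ties went to the first name. Of 50 other hairpins paired by name, with at least 30 counts per strand summed over the libraries, 2 whose strands fell in the same sequence group (16 shared bases on either strand) were left out, and those with the same pair of groups were joined, which left 41; this rule was set after the data were seen. All main rows were named, with the most counted row of let-7a, let-7b, let-7c, let-7e, miR-10a and miR-10b. The 3 nearest groups of each main row with at least 100 counts per library were also named. Members and lists were chosen with earlier results of these data known. Alternatives were TMM factors (edgeR 4.0.16), size factors (DESeq2 1.42.0), other totals, count minimums, folds and row sets. Scripts used Python 3.11.15, scipy 1.17.1 and R 4.3.3 and were tested on simulated data.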

Additional observations from a re-analysis of the deposited data

How the results depend on the processing

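No paired analysis was possible because there was 1 library for each temperature. The row hsa-miR-125b-2-3p in place of chi-miR-125b-3p was tried after seeing the data and moved no result beyond counting error. The 1 main row apart between 32 and 26 °C became 0 with TMM factors, with DESeq2 size factors and with at least 50 counts, and the 1 between 32 and 29 °C became 0 with at least 50 counts, since aca-miR-125a-3p had at most 47. The log2 ratio of the summed main rows was 0.06 for 32 over 26 °C, against 0.27 with TMM factors, 0.22 with DESeq2 size factors, 0.044 without the most abundant row in the total and 0.086 on the sequence-group total. For 29 over 26 °C it was 0.24, against 0.26, 0.25, 0.23 and 0.25 in that order, and 0.20 over all matched rows. For 32 over 29 °C it was -0.19, against 0.010 with TMM factors, a reversed sign, -0.036 with DESeq2 size factors, -0.17 on the sequence-group total and -0.15 over all matched rows. For 32 over 26 °C bta-miR-99a-5p changed from -0.16 to 0.055 with TMM factors and 0.0028 with DESeq2 size factors. For 32 over 29 °C hsa-miR-100-5p changed from -0.12 to 0.076 and 0.030 with these factors, and bta-miR-99a-5p from -0.15 to 0.043 with TMM factors. These scalings add a constant to every ratio of a pair. Between 32 and 29 °C higher rows were 22.0% of all rows apart, but 35.2% with TMM factors and 34.2% with DESeq2 size factors, and the 78 lower rows of all 807 became 46 and 48. The strand ratios stayed within their intervals when the rows of each strand were summed, but this change could move little. miR-99b had 1 row per strand, and most of the summed miR-125b rows repeat the same counts. sha-miR-125b and its near-identical row were not added to miR-125b. For miR-125a the log2 odds ratio for 32 over 26 °C went from 1.54 to 1.73. Depth limits the rows under 50 counts, where the intervals span more than 1 log2 unit.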
